A study of Mus musculus with 24 samples.

Results

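The 9 genes described here carry peptides to the cell surface on MHC class I or control that pathway: the heavy chains H2-K1, H2-D1 and H2-T23, the light chain B2m, the peptide supply and loading genes Psmb8, Tap1, Tap2 and Tapbp, and the transactivator Nlrc5. They were chosen by symbol, and each matched 1 row of the 56980 genes in the deposited table of estimated counts. All 9 were among the 14090 genes that passed the filter on low counts. Expression was measured by RNA sequencing in microglia, the macrophages that live in the brain, from 12 mice aged 19 months. Animals lacked Grn on both alleles (Grn-/-, labelled GrnKO), the gene of the lysosomal protein progranulin, or carried both intact alleles (Grn+/+, labelled WT). All 12 animals had a C57Bl/6J background and the hTfRmu/hu knock-in, so every GrnKO and every WT library carries that allele too. CD11b+ CD45+ cells of each animal were split by autofluorescence at 488 nm, a measure of lipofuscin, the undegraded residue that builds up in lysosomes with age. The 4 groups of 6 libraries were GrnKO high, GrnKO low, WT high and WT low, with 1000 cells in each library, and the high and low library with 1 animal number came from the same mouse.

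MHC class I molecules show short peptides from inside the cell to CD8 T cells and to receptors of natural killer cells. Proteasomes cut proteins into peptides, and the immunoproteasome, of which Psmb8 is a catalytic subunit, does so after interferon or in immune cells. The TAP1 and TAP2 chains together pump peptides into the endoplasmic reticulum, where tapasin, made by Tapbp, bridges the pump to empty class I molecules. A class I molecule is a heavy chain bound to beta-2-microglobulin, the product of B2m, without which most heavy chains do not reach the surface. H2-K1 and H2-D1 encode classical heavy chains, H2-T23 encodes Qa-1, which natural killer and T cells read through CD94/NKG2 receptors, and NLRC5 switches on transcription of class I genes. Microglia are known to carry little class I at rest and more after interferon and with age.

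The promoters of 4 of these genes are shown as description, and no test below rests on them. B2m passed a test, and Tap1 stood lower in 1 bin of every GrnKO animal but did not pass. H2-K1 and H2-D1, which did not pass either, are near relatives with shared promoter sequence. RefSeq (GRCm38.p6) gave a promoter for 7 of the 9 genes, and Tap2 and Nlrc5 were not matched. Each line gives the 250 bases before the start site, 5′ to 3′ on the gene's strand. Capitals mark matches, on either strand, to the letters searched: GAAANNGAAA for the interferon-stimulated response element, GGGNNNNNCC for NF-kB, ATTGG for the Y box of the class I promoter module, and TTCNNNGAA for the gamma-activated site. Overlapping matches run together.

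B2m (chr2:122147437-122147686, plus strand): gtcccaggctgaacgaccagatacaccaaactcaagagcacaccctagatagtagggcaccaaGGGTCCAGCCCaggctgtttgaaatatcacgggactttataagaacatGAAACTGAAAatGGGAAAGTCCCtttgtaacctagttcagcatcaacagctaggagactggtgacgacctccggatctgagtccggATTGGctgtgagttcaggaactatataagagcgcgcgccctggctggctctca
H2-K1 (chr17:34000348-34000597, minus strand, the first of its listed start sites): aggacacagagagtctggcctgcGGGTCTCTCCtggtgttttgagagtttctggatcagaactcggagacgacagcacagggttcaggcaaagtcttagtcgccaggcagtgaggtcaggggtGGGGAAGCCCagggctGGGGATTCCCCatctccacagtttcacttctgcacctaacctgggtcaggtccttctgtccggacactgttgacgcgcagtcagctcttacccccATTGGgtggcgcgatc
H2-D1 (chr17:35262844-35263093, plus strand): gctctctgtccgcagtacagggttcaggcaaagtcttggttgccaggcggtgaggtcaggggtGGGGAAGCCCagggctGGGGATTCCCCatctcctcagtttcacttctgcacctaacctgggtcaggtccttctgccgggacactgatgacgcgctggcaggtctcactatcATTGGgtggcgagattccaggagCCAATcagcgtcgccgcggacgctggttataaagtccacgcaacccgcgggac
Tap1 (chr17:34187306-34187555, plus strand): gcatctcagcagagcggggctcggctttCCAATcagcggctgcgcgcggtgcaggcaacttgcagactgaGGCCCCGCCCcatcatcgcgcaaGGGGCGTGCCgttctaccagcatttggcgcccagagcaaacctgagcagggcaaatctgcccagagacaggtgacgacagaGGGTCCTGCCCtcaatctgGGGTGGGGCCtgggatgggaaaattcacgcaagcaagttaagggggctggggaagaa

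The interferon letters stood in 2 of the 7 promoters, those of B2m (139 to 130 bases before the start) and H2-T23 (124 to 115 bases before), and in 2.98% of all 32851 promoters of the table, taken over the same 250 bases. In B2m they lay close to a stretch that matched the NF-kB letters 127 to 118 bases before the start. The NF-kB letters also stood in H2-K1, H2-D1 and Tap1 and in 45.8% of all promoters. H2-K1 and H2-D1 carried the same word, GGGGATTCCCC, 111 to 101 bases before the start in H2-K1 and 171 to 161 bases before it in H2-D1. The Y box letters stood in 6 of the 7, all but Psmb8, and in 33.8% of all promoters. Psmb8 held the gamma-activated letters, as did 7.02% of all promoters. These are exact matches of letters in a window and not measured sites. A promoter without a match, such as those of H2-K1 and H2-D1 for the interferon letters, can still hold a variant spelling that the search misses.

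The libraries held 12915578 to 46759864 counts. Grn itself lay between 0.519 and 20.3 CPM (counts per 1000000, with library sizes scaled by TMM) in GrnKO libraries, against 438 to 1474 CPM in WT libraries. All 10 microglia markers, among them P2ry12 and Tmem119, were at 1 CPM or more in every library, and their sum lay between 12016 and 36580 CPM. Sex-chromosome transcripts opposed the sex labels in 12 of 12 animals: Xist was 699.6 to 2267 CPM in libraries labelled male and 1.01 to 2.21 CPM in those labelled female. The label therefore entered the fits only as a class. In 4 libraries (both of WT animal 1, the low libraries of WT animal 9 and GrnKO animal 8) 6 choroid plexus markers summed to 20901 to 82765 CPM, against at most 2000 CPM in the other 20. The libraries of WT animal 1 also had the highest mitochondrial shares, 7.91% (high) and 9.70% (low), where the median was 2.20%. The low library of GrnKO animal 2 stood apart in B cell markers, 6 of which summed to 16064 CPM there and to at most 2802 CPM in any other library.

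The data bear on 2 questions: whether class I genes differ between GrnKO and WT microglia, and whether they differ between microglia with much and with little lipofuscin. Of the 9 genes, 1 passed in 1 of 7 comparisons: B2m, which was higher in lipofuscin-high than in lipofuscin-low libraries over all 12 animals. The other 8 genes passed in none. All 9 genes in all 24 libraries are plotted first.

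**Figure D1:**
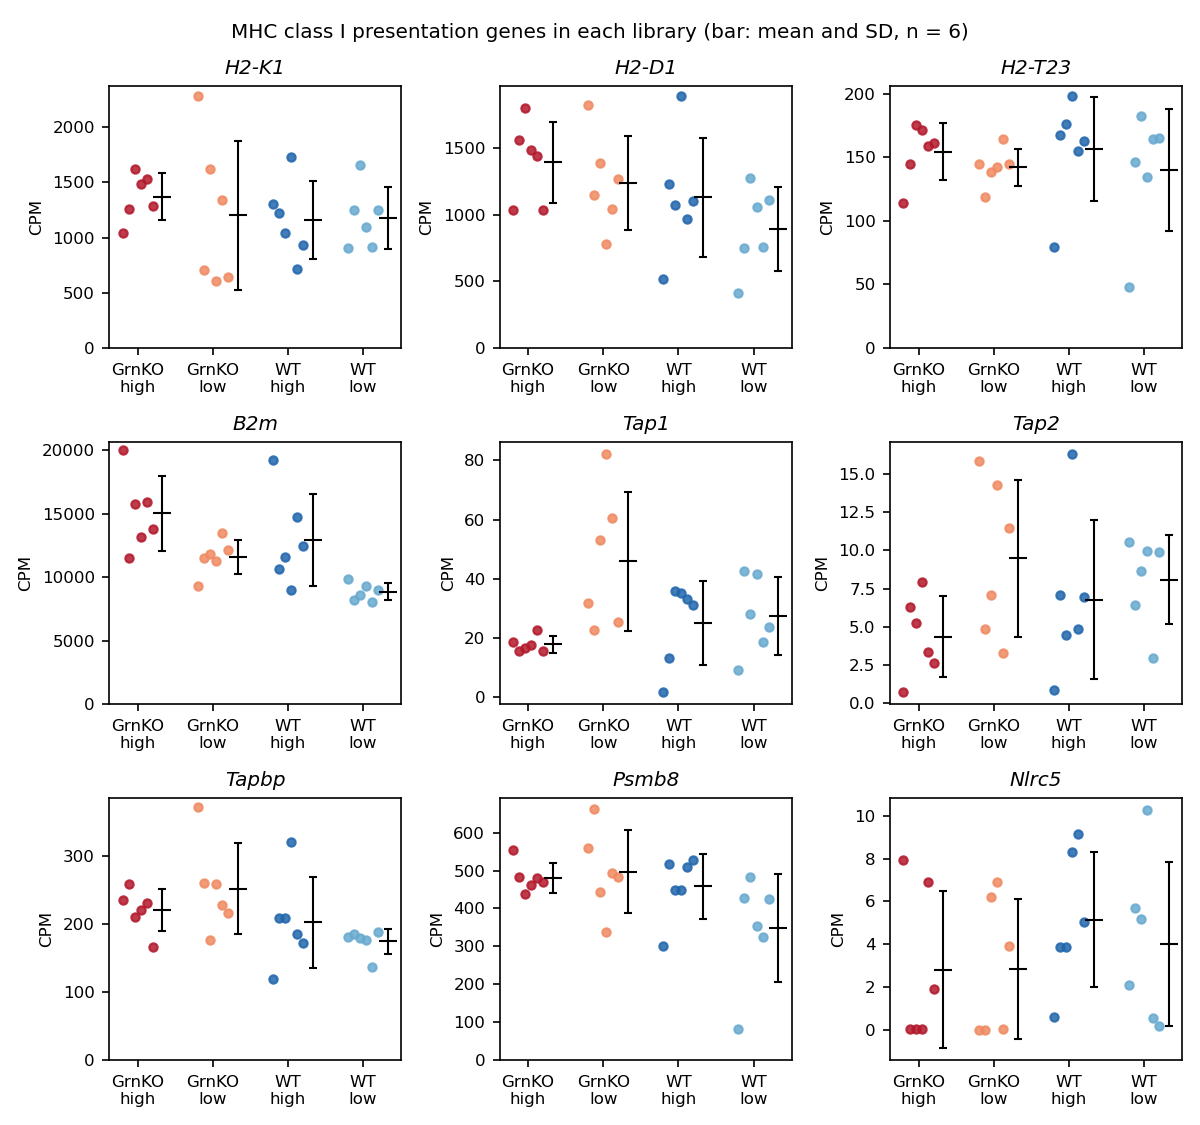
Level of each of the 9 genes in CPM (linear axis) in GrnKO high, GrnKO low, WT high and WT low libraries; each point is 1 library of 1 animal and the bar shows the mean and SD of 6. B2m averaged 15048 CPM in GrnKO high and 8836 CPM in WT low, Tap1 stayed under 23 CPM in all 6 GrnKO high libraries, and WT animal 1 is the low point of H2-D1, H2-T23, Tap1 and Psmb8 in both WT groups.

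B2m, the light chain shared by all these molecules, ranged in GrnKO high libraries from 11504 through a median of 14808 to 20064 CPM, and in GrnKO low libraries from 9328 through 11639 to 13448 CPM. In WT high libraries it ranged from 8974 through a median of 12042 to 19241 CPM, and in WT low libraries from 8083 through 8798 to 9824 CPM. B2m alone made up 0.823 to 1.67% of the counts of a library. The WT low group was the lowest and the tightest, and neighbouring groups overlapped: 4 of 6 GrnKO high libraries lay above every GrnKO low library, and 5 of 6 WT high libraries lay above every WT low library.

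Within animals, B2m was higher in the high bin in 6 of 6 GrnKO animals and in 5 of 6 WT animals. WT animal 7 was the exception, with 8974 CPM in its high and 9315 CPM in its low library. Among all tested genes, 1.70% were higher in the high bin in at least 11 of the 12 animals. The log2 fold change of high over low over all animals was 0.44 (SE 0.0996, 95% interval 0.23 to 0.65, a 1.35-fold difference), with an adjusted p of 0.0306 in edgeR's quasi-likelihood test with the animal as a block. In that comparison 214 of 14090 genes were called, 1.52%, of which 95 were higher (0.674%) and 119 lower (0.845%) (47 higher and 151 lower when libraries were scaled by size alone).

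This call was close to its threshold. It ended in exact sign flips over the 12 animals (p = 0.00146, adjusted 0.0748) and with scaling by library size alone (log2 fold change 0.30, adjusted p = 0.0929 in edgeR). Leaving out 1 animal at a time moved its adjusted p in edgeR between 0.0200 and 0.0594, and it was over 0.05 without any 1 of animals 1, 3, 5, 6, 9 and 11. Without the 3 animals with a library high in choroid plexus markers the fold change was 0.37 and the adjusted p in edgeR was 0.115. With the animal as a random block in limma-voom, which called 2.21% of all genes in this comparison, it was 0.00196.

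In each genotype alone B2m did not pass, beside 0.248% of genes called between the bins of WT and 0.185% between the bins of GrnKO. These fits, and that of the difference between genotypes, held no term for the animal and so did not use the pairing. The high-over-low log2 fold change was 0.36 in GrnKO (95% interval 0.067 to 0.65, adjusted p = 0.453 in edgeR). B2m was higher in 6 of 6 GrnKO animals, in animal 4 by less than the rounding of the counts. In WT the fold change was 0.53 (0.24 to 0.83, adjusted p = 0.160 in edgeR, higher in 5 of 6). Without GrnKO animal 2 the GrnKO value was 0.22. The WT difference passed in limma-voom with the animal as a random block (adjusted p = 0.0396), where 0.596% of genes were called. The test of the difference itself, GrnKO effect minus WT effect, gave -0.17 (95% interval -0.59 to 0.24, adjusted p = 1.00 in edgeR). It ran from -0.31 (without GrnKO animal 2) to -0.054 (without WT animal 1) with 1 animal left out, and it was -0.015 without the choroid-high libraries.

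**Figure D2:**
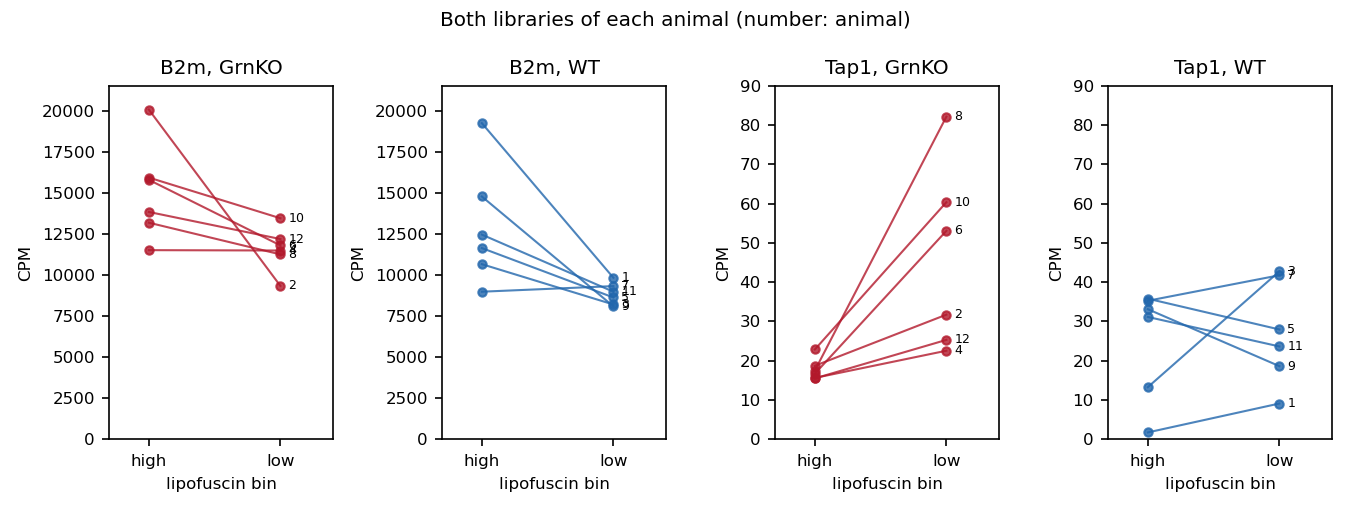
CPM of B2m and Tap1 (linear axes from 0) in the high and the low library of each animal, joined by a line and numbered by animal, GrnKO left of WT for each gene. B2m is higher in the high bin in 11 of 12 animals, with nearly equal values in GrnKO animal 4. Tap1 is lower in the high bin in 6 of 6 GrnKO animals and in 3 of 6 WT animals.

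Between genotypes B2m leaned the same way in both bins without passing. In the low bin 5 of 6 GrnKO libraries lay above every WT library, with a log2 fold change of 0.39 (95% interval 0.098 to 0.68, adjusted p = 0.275 in edgeR). The exception was GrnKO animal 2, whose low library had the lowest value of its group (9328 CPM) and whose high library had the highest (20064 CPM). That low library is the one high in B cell markers, and it also held the highest H2-K1 (2285 CPM), H2-D1 (1819 CPM) and Tapbp (373 CPM) of the GrnKO low group, and the part of these markers was not tested. In the high bin the fold change was 0.22 (95% interval -0.073 to 0.51, adjusted p = 0.982), and the groups overlapped. It was 0.35 without WT animal 1 (adjusted p = 0.360) and 0.33 without the choroid-high libraries (adjusted p = 0.402). Over both bins, in limma-voom with the animal as a random block, it was 0.33 (SE 0.0879, 95% interval 0.15 to 0.51) with an adjusted p of 0.0593, just over the threshold. Without WT animal 1 it was 0.38 and the adjusted p was 0.00663, and without GrnKO animal 2 it was 0.34 and 0.0290. Without the 4 libraries high in choroid plexus markers it was 0.34 and the adjusted p was 0.0559. Other settings left it further from the threshold. With both libraries of an animal summed, it was 0.29 with an adjusted p of 0.431 in edgeR. In edgeR with no replicate block it was 0.31 and the adjusted p was 0.154. Scaling by library size alone lowered the fold change to 0.21.

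The classical heavy chains varied more between animals than between groups. H2-K1 ranged from 1038 through a median of 1386 to 1623 CPM in GrnKO high, from 605.5 through 1026 to 2285 CPM in GrnKO low, from 713 through 1135 to 1731 CPM in WT high and from 907 through 1170 to 1656 CPM in WT low. The GrnKO low libraries were the most scattered, with 3 below every WT low library and 1 above them all, and a standard deviation of 56.3% of the mean. Its fold changes had 95% intervals from -0.58 to 0.51 (GrnKO over WT, low bin) and from -0.22 to 0.54 (high over low, all animals), with adjusted p between 0.841 and 1.00 in all 7 comparisons.

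H2-D1 ranged from 1031 through 1462 to 1798 CPM in GrnKO high and from 779 through 1206 to 1819 CPM in GrnKO low. In WT high it ranged from 521 through 1088 to 1891 CPM and in WT low from 416 through 907 to 1276 CPM. All 4 groups overlapped, and the 2 lowest values were those of WT animal 1. H2-D1 over both bins had a log2 fold change of 0.37 for GrnKO over WT (95% interval 0.028 to 0.72, adjusted p = 0.374 in limma-voom), and over all animals it was 0.26 for high over low (-0.020 to 0.54, adjusted p = 0.512 in edgeR, higher in 8 of 12 animals). The genotype value was 0.24 without WT animal 1, and also 0.24 without the choroid-high libraries. These 2 chains can draw on each other's reads: of the distinct 31-base words in the transcripts of H2-K1 and H2-D1, 22.8% and 26.7% also occurred in other genes, first in each other, so their separate values are uncertain.

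H2-T23, the Qa-1 heavy chain, varied little in GrnKO libraries, with a standard deviation of 14.5% of the mean in the high and 10.2% in the low bin. It ranged from 114 through 160.5 to 175 CPM in GrnKO high, from 119 through 144 to 165 CPM in GrnKO low, from 79.2 through 165 to 199 CPM in WT high and from 48.4 through 155 to 183 CPM in WT low. Apart from WT animal 1, which gave both minima of WT, the 4 groups covered much the same levels. The genotype difference over both bins had a 95% interval of -0.32 to 0.32 on the log2 scale, and the bin difference over all animals one of -0.062 to 0.39 (adjusted p = 0.654 in edgeR). Of the words in all its transcripts, 24.5% also occurred in other genes, most of all in the pseudogene H2-T-ps. In the last 500 bases of its protein-coding transcripts 66.0% did, so its 3′ reads are uncertain too.

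Counts of B2m per count of H2-K1 plus H2-D1 averaged 5.69 ± 2.06 in GrnKO high, 5.42 ± 2.05 in GrnKO low, 6.30 ± 2.95 in WT high and 4.57 ± 1.53 in WT low (SD, n = 6 each). The ratio ran from 2.27 to 10.6 over the 24 libraries and overlapped between all groups. It is a ratio of counts, not of molecules, and was not tested.

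The peptide pump gene Tap1 showed the widest bin difference among the members above 10 CPM. It ranged from 15.5 through a median of 17.1 to 22.8 CPM in GrnKO high and from 22.5 through 42.4 to 82.2 CPM in GrnKO low. In WT high it ranged from 1.70 through 32.1 to 35.8 CPM and in WT low from 9.07 through 25.8 to 42.8 CPM. The GrnKO high libraries were close together and low, with 5 of 6 below every GrnKO low library, while the WT groups covered each other.

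Tap1 was lower in the high bin in 6 of 6 GrnKO animals. The log2 fold change, from an edgeR fit with no term for the animal, was -1.36 (95% interval -2.36 to -0.37). The unadjusted p in that fit was 0.00914, but the adjusted p over all genes was 0.354. With the animal as a block Tap1 did not pass either. The share of all genes lower in 6 of 6 GrnKO animals was not counted, so this run cannot be read as a trait of Tap1. In WT Tap1 was lower in 3 of 6 animals (-0.10, 95% interval -1.08 to 0.88). The test of the difference between genotypes gave -1.26 (95% interval -2.65 to 0.13, adjusted p = 0.983 in edgeR). Over all animals the fold change was -0.83 (95% interval -1.48 to -0.19, adjusted p = 0.259), lower in 9 of 12 animals, as 14.7% of all tested genes were in at least 9. Between genotypes, Tap1 had 0.78 in the low bin (95% interval -0.21 to 1.77) and -0.48 in the high bin (-1.46 to 0.50). The low-bin value was -0.019 without the 4 libraries high in choroid plexus markers, among which are its lowest WT values and its highest GrnKO value. Without them the high-bin value was -0.77, the GrnKO bin difference -1.02, the difference between genotypes -0.75 and the value over all animals -0.68, none of which passed. Leaving out GrnKO animal 8 gave 0.52 in the low bin, and leaving out WT animal 5 gave -0.29 in the high bin.

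Tap2, the other chain of the pump, was scarce: 0.692 through 4.28 to 7.91 CPM in GrnKO high, 3.29 through 9.28 to 15.9 CPM in GrnKO low, 0.849 through 5.89 to 16.3 CPM in WT high and 2.96 through 9.27 to 10.6 CPM in WT low. All groups overlapped. Its GrnKO bin difference, high over low, was -1.20 (95% interval -2.53 to 0.12, adjusted p = 0.734 in edgeR), with lower values in 4 of 6 animals, and -0.61 without GrnKO animal 2.

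Tapbp, which makes the bridge protein tapasin, ranged from 166 through 226 to 259.8 CPM in GrnKO high, from 177 through 244 to 373 CPM in GrnKO low, from 119 through 197 to 321 CPM in WT high and from 137 through 180.4 to 189 CPM in WT low. In the low bin 5 of 6 GrnKO libraries lay above every WT library. The log2 fold change there was 0.53 (95% interval 0.13 to 0.93, unadjusted p = 0.0108), and the adjusted p was 0.274 in edgeR. Without GrnKO animal 2, whose low library is high in B cell markers, it was 0.36 (adjusted p = 0.593). Over both bins it was 0.30 (0.018 to 0.58, adjusted p = 0.386 in limma-voom), and between bins over all animals it was -0.0051 (-0.27 to 0.26).

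Psmb8, the immunoproteasome subunit LMP7, ranged from 439 through 475 to 553 CPM in GrnKO high and from 337 through 488 to 662 CPM in GrnKO low. It ranged from 299.9 through 479 to 527 CPM in WT high and from 83.1 through 389 to 483 CPM in WT low. The WT low value of 83.1 CPM was that of animal 1 and stood apart from the other 23 libraries. In the low bin the log2 fold change of GrnKO over WT was 0.52 (95% interval 0.0033 to 1.04, adjusted p = 0.482 in edgeR), and between bins over all animals it was 0.26 (-0.057 to 0.57, adjusted p = 0.589), higher in 6 of 12 animals. Without WT animal 1 these were 0.30 and 0.12, and without the choroid-high libraries 0.33 and 0.044.

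Nlrc5, the class I transactivator, was near the floor of detection. It ran from 0.0329 to 7.96 CPM in GrnKO high, from 0 in 2 libraries to 6.92 CPM in GrnKO low, from 0.622 to 9.17 CPM in WT high and from 0.165 to 10.3 CPM in WT low. That is 0 to 360 counts in a library, and in each GrnKO group 3 of 6 libraries lay below every WT library of the same bin. Over both bins the log2 fold change in limma-voom was -2.60 (95% interval -4.96 to -0.23, unadjusted p = 0.0328, adjusted 0.365; -1.73 without GrnKO animal 4), and in edgeR, which weighs such low counts otherwise, it was -0.49 (low bin) and -0.89 (high bin), with intervals from -3.99 to 2.44. The edgeR intervals of Nlrc5 span differences of several fold either way, and the limma-voom value did not pass after adjustment.

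**Figure D3:**
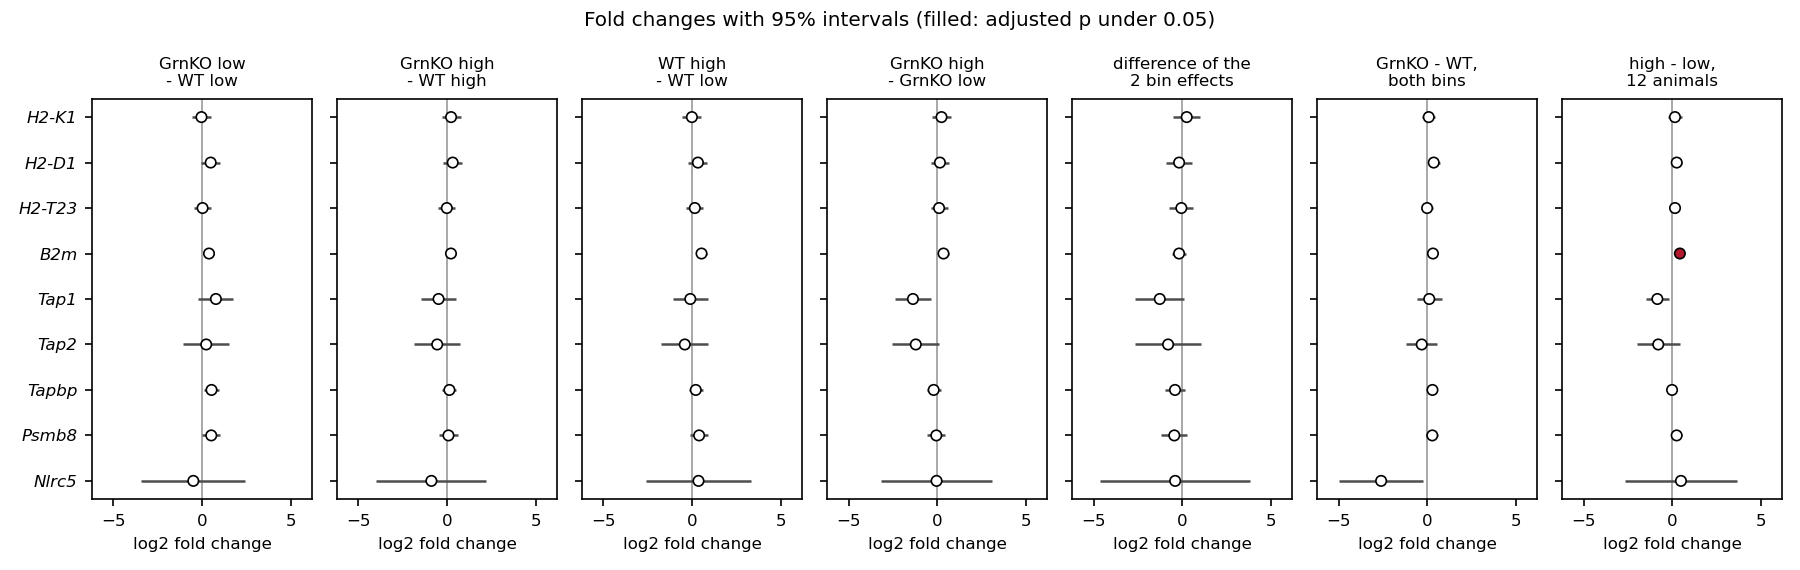
Log2 fold change (points) with its 95% interval (lines) of each of the 9 genes in the 7 comparisons, each panel named as the first group minus the second; filled points have an adjusted p under 0.05 over all 14090 genes. B2m over all 12 animals is the 1 filled point, and the intervals of Nlrc5 reach from -4.96 to 3.84.

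Counted together, 0 of the 9 genes were called for genotype in the low bin, where 46 of all tested genes were (0.326%), and 0 in the high bin, where 23 were (0.163%). Of the called genes, 38 and 19 were higher in GrnKO (29 of 48 and 14 of 21 with library size alone). For genotype over both bins 0 of 9 were called, beside 154 genes, 1.09% (115 higher and 39 lower, or 88 and 101 with library size alone). Between bins 0 of 9 were called within GrnKO (26 genes, 3 higher) and 0 within WT (35 genes, 14 higher, or 10 of 35 with library size alone). For the difference of the bin effects edgeR called 0 of 14090 genes (0%), with 741 at an unadjusted p under 0.05, while limma-voom called 1 and DESeq2 called 71, none of them a member.

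In the low bin 7 of the 9 genes had a positive GrnKO over WT fold change and their median was 0.39, against a median of -0.030 over all tested genes. Markers of other cells also differed there: the sum of 5 erythrocyte markers lay between 54.4 and 37502 CPM in GrnKO and between 4.67 and 37.7 CPM in WT, so every GrnKO low library lay above every WT low library. All 5 had a positive fold change (median 9.99), as did 8 of 8 neutrophil markers (median 0.84), and edgeR called 0 genes of either list. Their part in the genotype differences of the 9 genes was not tested. In the high bin 5 of the 9 genes were positive with a median of 0.078, against -0.057. For high over low the median of the 9 was -0.031 in GrnKO and 0.21 in WT, against -0.054 and -0.039 over all genes. Scaling by library size alone moved the median gene of at least 10 CPM from near 0 to -0.14 in the low-bin genotype comparison, -0.11 in the high bin and -0.087 for high over low in all animals. With it, H2-T23 in the low bin, H2-K1 over both bins and Psmb8 in the high bin changed the sign of their genotype difference. In each of the 4 pairs of groups (GrnKO against WT in either bin, high against low in either genotype) the libraries of all 9 genes overlapped, as did those of nearly all genes: 1.16%, 1.07%, 1.41% and 0.688% of tested genes did not overlap between genotypes (low bin, then high bin) and between bins (GrnKO, then WT).

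The 9 genes did not vary as 1 block across the 24 libraries. Of their 36 pairs, 22 had a positive Pearson r of log2 CPM, with a median of 0.19, and 23 did after group means were subtracted. The closest pairs were H2-T23 with Psmb8 (r = 0.75), H2-D1 with H2-T23 (0.73) and H2-D1 with Psmb8 (0.71). B2m ran apart, with -0.71 against Tap2 and -0.39 against Tap1. Its r with the mean of the 9 standardized genes was -0.069, and -0.53 with group means subtracted, where H2-D1 had 0.89 and 0.87. Among tested genes whose pattern was most like that mean were Capzb (r = 0.91), Scpep1 (0.87), Hmga1b (0.86) and Necap2 (0.85). With group means subtracted they were Capzb (0.92), Aldh3b1 (0.87), Hmga1b (0.87), Zc3hc1 (0.86) and Pfn1 (0.86). These are descriptions over 24 libraries that share animals, depth and the low values of WT animal 1.

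Around the 9 genes, the rest of the machinery was read from lists given by role. Over all tested genes, the share called in a comparison ran from 0% to 1.52%. Of the 18 other class I heavy chains and related molecules 14 were tested, and 0 were called in any of the 7 comparisons. H2-Q7, a nonclassical heavy chain, averaged 46.4 ± 8.46 CPM in the high and 99.9 ± 47.8 CPM in the low libraries of GrnKO (SD, n = 6 each, log2 fold change -1.02, adjusted p = 0.123 in edgeR). Its reads can also be shared with its close relatives. Of the 12 genes of folding and peptide trimming in the endoplasmic reticulum 0 were called, and so were 0 of the 6 other immunoproteasome and activator genes. Psme2, a subunit of the PA28 activator, averaged 344 ± 38.2 CPM in GrnKO and 272 ± 56.7 CPM in WT among low libraries, and 310 ± 32.3 CPM in GrnKO and 368 ± 35.0 CPM in WT among high libraries. The difference of its genotype effects, -0.58, had an adjusted p of 0.817 in edgeR.

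Of the 3 constitutive catalytic proteasome subunits, 1 rose in GrnKO: Psmb6, the subunit that LMP2 replaces in the immunoproteasome. It averaged 503 ± 52.9 CPM in GrnKO low and 326 ± 59.5 CPM in WT low (log2 fold change 0.63, 95% interval 0.34 to 0.92, adjusted p = 0.0377 in edgeR), and over both bins the fold change was 0.41 (adjusted p = 0.0283 in limma-voom). In the high bin it averaged 520.0 ± 88.5 CPM in GrnKO and 464 ± 75.5 CPM in WT and did not pass. Of 9 genes of cross-presentation, the route by which class I shows peptides from outside the cell, 1 rose: Cyba, the p22phox chain of the NADPH oxidase. It averaged 739 ± 113 CPM in GrnKO low and 368 ± 112 CPM in WT low (log2 fold change 1.01, adjusted p = 0.0154 in edgeR), and the fold change was 0.74 over both bins (adjusted p = 0.00116 in limma-voom). In the high bin Cyba averaged 769 ± 133 CPM in GrnKO and 536 ± 92.0 CPM in WT. It did not pass there (log2 fold change 0.52, adjusted p = 0.526 in edgeR). These calls of Psmb6 and Cyba stand beside 0.326% of all tested genes called for genotype in the low bin and 1.09% over both bins.

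Of the 27 regulators of class I transcription, among them Irf1 and the RFX and NF-Y subunits, 0 were called in any comparison. Of 26 interferon-response genes 1 fell, Ifi27l2a in the high bin, at 183 ± 29.9 CPM in GrnKO against 383 ± 174 CPM in WT (log2 fold change -1.05, adjusted p = 0.0366 in edgeR). The list's median over both bins was -0.42 for GrnKO over WT, with 5 of 26 positive, against a median of -0.030 over all tested genes. Of the 15 receptors that read class I, 14 had a row in the deposited counts, only 7 had counts enough to be tested, and 0 were called. Cd8b1, a chain of the CD8 coreceptor of T cells, averaged 5.58 ± 7.27 CPM in GrnKO high against 65.2 ± 28.5 CPM in GrnKO low (log2 fold change -3.57, adjusted p = 0.233 in edgeR).

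MHC class II is the neighbouring pathway that shows peptides taken up from outside to CD4 T cells. Over all animals 4 of its 12 genes fell in the high bin, beside 0.845% of all genes, and 1 rose, beside 0.674%. Of the 12, 7 had a positive fold change, and the median was 0.093. The invariant chain Cd74 averaged 62.2 ± 10.5 CPM in GrnKO high against 257 ± 69.2 CPM in GrnKO low, and 107 ± 27.8 CPM in WT high against 268 ± 79.6 CPM in WT low (log2 fold change over all animals -1.66, adjusted p = 6.23e-06 in edgeR). H2-Aa and H2-Eb1, which make class II chains, had -1.92 and -1.93 (adjusted p = 6.01e-06 each). Ctss, the protease that trims the invariant chain, rose by 0.59 (adjusted p = 0.00155). Whether class I and class II genes differ in their bin effects was not tested.

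**Figure D4:**
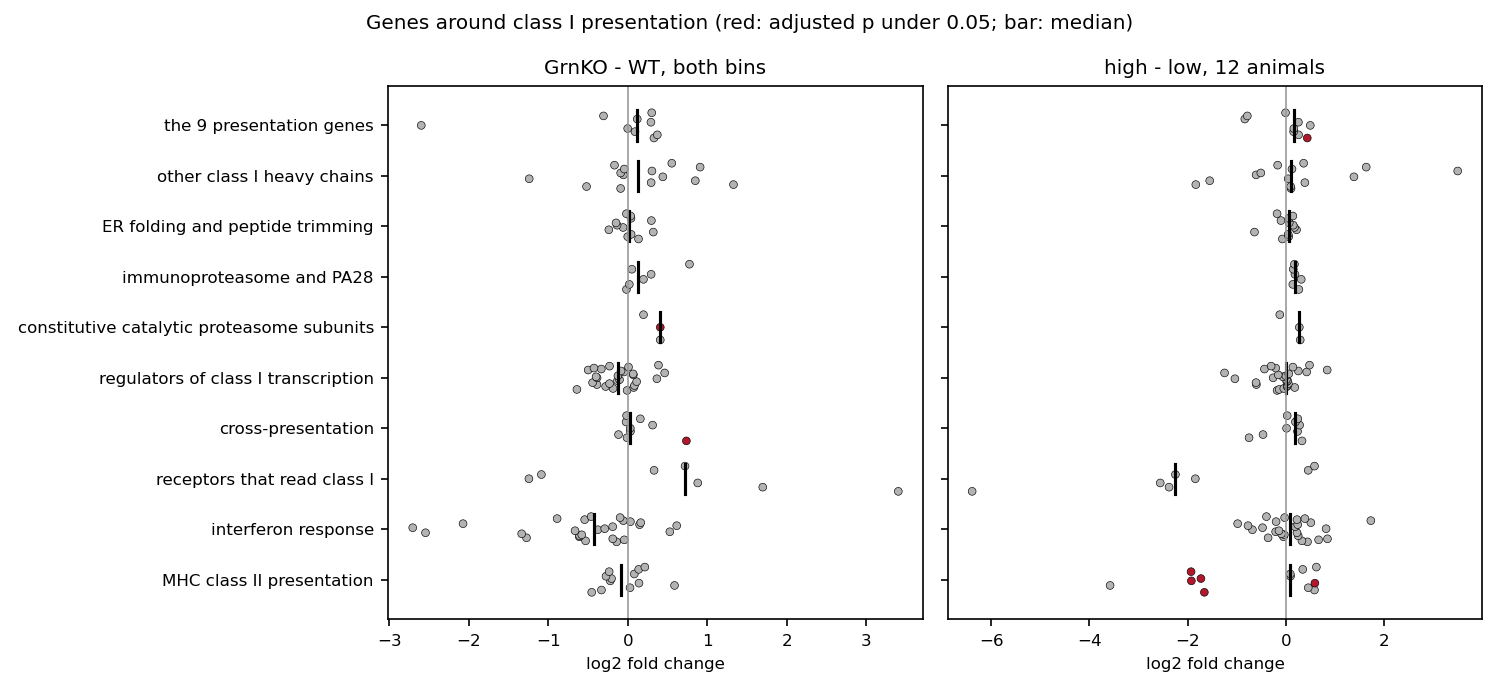
Log2 fold change of each tested gene (points, red where the adjusted p is under 0.05) in the list of 9 and in 9 lists around it, with the median as a bar, for GrnKO over WT in both bins (left) and high over low in 12 animals (right). On the left 2 points of these lists are red (Psmb6 and Cyba); on the right they are B2m and 5 class II genes.

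Transcripts of other leukocytes had lower median sums in the high than in the low libraries of both genotypes. The sum of 16 T and NK cell markers was 79.5 to 304 CPM in GrnKO high against 429 to 1190 CPM in GrnKO low, and 95.4 to 190.0 CPM in WT high against 104 to 635 CPM in WT low. The sum of 8 monocyte markers was 18.9 to 181 CPM in GrnKO high against 533 to 2291 CPM in GrnKO low, and 15.4 to 92.5 CPM in WT high against 345 to 1649 CPM in WT low. The 8 neutrophil markers summed to 26.0 to 3505 CPM in GrnKO high against 3785 to 31763 CPM in GrnKO low, and to 14.5 to 2823 CPM in WT high against 1640 to 22070 CPM in WT low. Of the T and NK markers, Ncr1 was at 0 in all WT high and Prf1 in all WT low libraries, and no marker of these lists was at 0 in all 6 libraries of another group. The microglia markers summed to 27024 to 34639 CPM in GrnKO high against 19606 to 24454 CPM in GrnKO low. In WT their sums overlapped, with 15562 to 36580 CPM in the high against 12016 to 29494 CPM in the low libraries. The gate on CD11b and CD45 also admits monocytes and neutrophils. The median sums of T and NK cell, monocyte and neutrophil markers were lower in the high bin. There B2m and Ctss were higher, Cd74, H2-Aa and H2-Eb1 were lower, and Tap1 was lower in 9 of 12 animals. The part of these cells and of border-associated macrophages in the results was not tested. In bulk libraries of sorted cells, fewer cells of a type and less RNA per cell cannot be told apart.

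**Figure D5:**
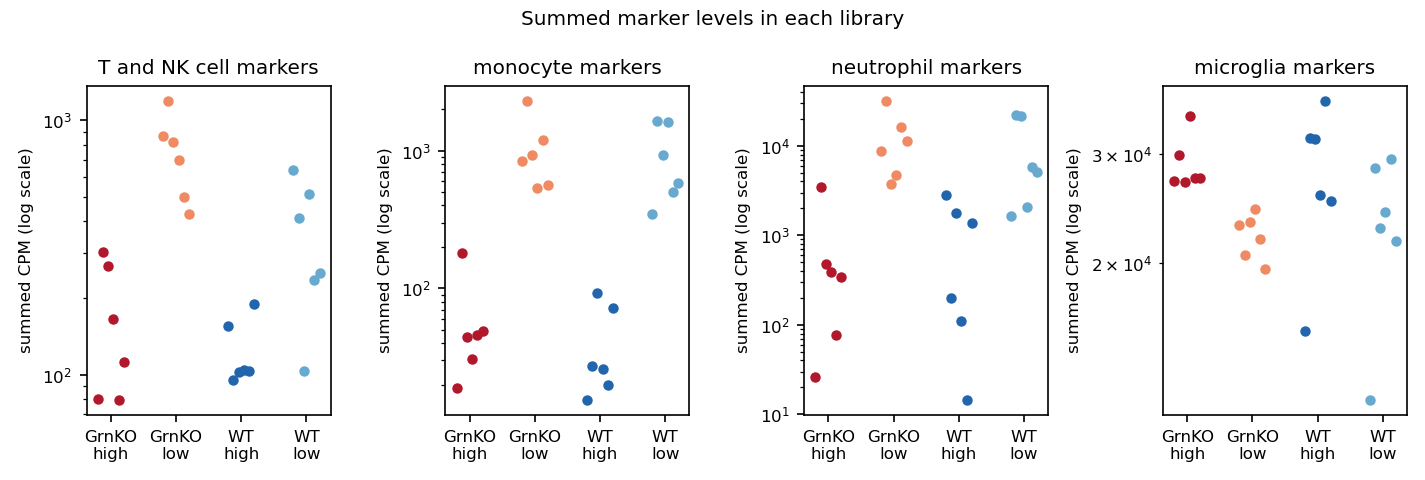
Summed CPM (log axis) of T and NK cell, monocyte, neutrophil and microglia markers in each library of GrnKO high, GrnKO low, WT high and WT low (1 point per library, 6 per group). Monocyte markers reach at most 181 CPM in the high bins and at least 345 CPM in the low bins.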

How the data were processed

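Per the labels' protocols, brains were dissociated with actinomycin D and anisomycin present, 1000 CD11b+ CD45+ cells were sorted into lysis buffer for each library, and a kit that primes at the 3′ end (SMARTSeq v4 3′ DE) gave the cDNA, from which Nextera XT libraries were made and read single-end. The submitters' processing notes name STAR 2.7.9a, Salmon 1.10.1, edgeR 4.6.2, R 4.5.1 and GRCm39. The sources used here do not state the strand setting. The authors deposited estimated counts per gene at 2 significant digits, which alone can move a value by up to 5%, and 8.28% of those above 0 and below 10 carried a fraction. Whole counts had been assumed when tests were planned, and these values were rounded to whole numbers for them. A 3′ kit without molecular identifiers counts amplified fragments near the end of a transcript, so levels of different genes are not compared.

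Of 56980 genes, filterByExpr by group kept 14090. Genes were tested in edgeR 4.0.16 (R 4.3.3) with TMM scaling and quasi-likelihood fits of all 24 libraries, with a mean for each group plus a term for the labelled sex. These fits held no term for the animal, so both libraries of 1 mouse were treated as independent. Genotype over both bins was tested in limma-voom (limma 3.58.1) with the animal as a random block, and lipofuscin over all animals in edgeR with the animal as a fixed block. Tests were 2-sided, and a gene was called when its p, adjusted over all tested genes by Benjamini-Hochberg, lay under 0.05. The scripts were tested on simulated data. DESeq2 1.42.0 was an alternative. log2 CPM used a prior count of 2. Shared 31-base words were counted in GENCODE transcripts of GRCm38. Figures were drawn with matplotlib 3.10.9.

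Pairing comes from the animal number that each label gives. Taken as differences from the mean of the group, both libraries of 1 mouse correlated with r between -0.016 and 0.32 (median 0.10), and the consensus correlation was 0.087. The common biological coefficient of variation was 1.08.

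The members and lists were chosen with earlier results of these data known. The text names Grn, the 9 members and, of each list discussed, up to 3 called members in the main direction and 1 in the other, or otherwise up to 2 of smallest p. For likeness it names the 5 genes of highest r with a mean of at least 10 CPM. A few genes that these rules name are not reported here.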

Additional observations from a re-analysis of the deposited data

Results flagged for a closer look

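Of 36 groups of 6 libraries (9 genes in 4 groups), 4 held a lowest value whose gap to the next library took up more of the group's whole range than Dixon's test allows at 95%. Chance flags about 1 in 20 groups. H2-T23 in WT animal 1 stood apart in both bins, with 79.2 CPM in WT high and 48.4 CPM in WT low. Psmb8 in WT high was lowest in the same animal, with 299.9 CPM. Tapbp in WT low was lowest in WT animal 9, with 137.4 CPM. All 4 values come from libraries of WT animal 1 or from the low library of WT animal 9, which are among the 4 libraries high in choroid plexus markers, and their part in these values was not tested.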

How the results depend on the processing

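Of 1260 recomputed fold changes of the 9 genes, 1169 kept their direction and their side of the threshold, 76 changed sign, 6 gained the call and 9 lost it. B2m was called in 14 of them and the other 8 genes in 0. The 2 alternatives added after seeing the data are the one without the 4 libraries high in choroid plexus markers and, for both pooled comparisons, library size alone.

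The number of the 9 genes called became 1 for genotype in the low bin with no filter on low counts, and 1 between the bins of WT with no filter, with DESeq2 and with the animal as a random replicate block in limma-voom, each time B2m; a replicate block, or its absence, changed no other call of the 9 genes. Between bins over all animals it became 0 with exact sign flips, with library size alone and without the choroid-high libraries. Leaving out 1 animal gave 0 to 1 for that comparison and 0 to 1 for genotype over both bins.

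Counts of all genes called moved by over 1.5 times in these settings, in the order genotype in the low bin, genotype in the high bin, high over low in GrnKO, high over low in WT. They were 313, 284, 360 and 299 with no filter and 358, 192, 297 and 261 with DESeq2, and 118, 62, 56 and 78 without the choroid-high libraries. The difference of the bin effects had 329 with no filter, 71 with DESeq2 and 1 with limma-voom, with or without the block. Genotype in the high bin had 47 in limma-voom with no block and 49 with the random replicate block. High over low had 65 in GrnKO in limma-voom with no block, and 117 in GrnKO and 84 in WT with the random replicate block. With the animal as a fixed replicate block edgeR called 48 in GrnKO and 64 in WT. With only the 2 groups compared it was 21 for genotype in the low bin, 61 for high over low in GrnKO and 7 in WT. Genotype over both bins had 34 when both libraries of an animal were summed and 307 without the choroid-high libraries, and high over low in all animals had 139 with exact sign flips. Leaving out 1 animal gave 30 to 118 for genotype in the low bin, 8 to 49 in the high bin, 100 to 303 over both bins, 2 to 62 for high over low in GrnKO, 7 to 53 in WT and 141 to 226 in all animals. The highest count was without WT animal 1 in each of these, and the lowest without animals 4, 2, 11, 2 (also 6 and 12), 3 and 3 in that order.

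None of the values that changed sign passed. With library size alone they were -0.11 for H2-T23 (genotype, low bin), -0.026 for Psmb8 (genotype, high bin), -0.032 for H2-K1 (genotype, both bins) and -0.0029 for H2-T23 (high over low, GrnKO). Without the choroid-high libraries they were -0.15 for H2-T23 and -0.019 for Tap1 (genotype, low bin), -0.030 for Psmb8 (genotype, high bin), -0.31 for Tap1 (genotype, both bins), 0.19 for Nlrc5 (high over low, GrnKO), 0.14 for Nlrc5 (difference of bin effects) and 0.055 for Tapbp (high over low, all animals). Nlrc5 between the bins of GrnKO was 0.39 in limma-voom with and without the replicate block and 0.12 with the fixed replicate block. Tapbp over all animals was 0.021 with the random block and 0.0070 with no replicate block. H2-T23 was 0.0038 for genotype in the high bin with no filter, 0.0066 over both bins with no replicate block and 0.0034 with libraries summed. H2-K1 in the low bin was 0.028 without the sex label.

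With 1 animal left out, genotype in the low bin ran from -0.28 to 0.11 for H2-K1, -0.16 to 0.16 for H2-T23, -1.02 to 0.14 for Nlrc5 and -0.14 to 0.43 for Tap2. In the high bin it ran from -0.15 to 0.064 for H2-T23 and -0.019 to 0.14 for Psmb8. Over both bins it ran from -0.056 to 0.19 for H2-K1, -0.15 to 0.079 for H2-T23 and -0.083 to 0.30 for Tap1. High over low ran from -0.97 to 1.00 for Nlrc5 and -0.11 to 0.052 for Psmb8 in GrnKO. In WT it ran from -0.20 to 0.13 for H2-K1, -0.095 to 0.69 for Nlrc5, -0.29 to 0.20 for Tap1 and -0.75 to 0.013 for Tap2. In all animals it ran from -0.045 to 1.098 for Nlrc5 and -0.080 to 0.059 for Tapbp. The difference of bin effects ran from -0.32 to 0.062 for H2-D1, -0.10 to 0.056 for H2-T23 and -1.33 to 0.58 for Nlrc5. The causes were not tested. With 0 to 360 counts in a library, the sign of Nlrc5 was not settled between bins or for the difference of bin effects. With 1 animal left out, its genotype value stayed negative in the high bin and over both bins. In the low bin it changed sign in 1 fit. None of these values passed.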
